A study of Mus musculus with 33 samples.

Results

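The 5 genes Bbc3, Pmaip1, Bcl2l11, Bax and Apaf1, which act in mitochondrial apoptosis, were followed through 26 lists of p53 binding peaks. A peak counted for a gene when it overlapped a fixed mm9 window by at least 1 bp. The windows were chr7:16870000-16925000 for Bbc3, chr18:66600000-66650000 for Pmaip1, chr2:127930000-128010000 for Bcl2l11, chr7:52700000-52740000 for Bax and chr10:90430000-90570000 for Apaf1. They span 365 kb in all and hold 216 of the 102916 peaks in the lists. Merging overlapping peaks of all lists left 20 regions in the windows, of 18927 in the genome. The lists came from chromatin immunoprecipitation and sequencing (ChIP-seq) with the p53 antibody CM5p in lymph node B cell lymphomas of C57/Bl6 Eµ-myc mice, in which Myc is driven by an immunoglobulin heavy chain enhancer. Arf-/- Trp53+/+ tumours 5 to 7 lack Arf, an upstream activator of p53, and keep wild-type Trp53. Their cells received 1 µM doxorubicin, 5 µM (-)-Nutlin, 5 µM (+)-Nutlin, DMSO (0.5 volumes per 1000) or water (1 volume per 1000) for 3 h, or were left untreated, with 3 lists per group. Tumours 1 to 4 were Trp53(KI/delta), with a knock-in (KI) allele over a deleted one, and received 100 nM OHT or EtOH (1 volume per 1000) for 2 h, with 4 lists per group. OHT is 4-hydroxytamoxifen, which switches on the p53 fusion protein that this KI allele encodes. The cells were pressed from lymph nodes without further purification, and peak lists carry no expression, so the B cell label could not be checked against markers.

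Mitochondrial apoptosis is started when BH3-only proteins neutralise the BCL2 family members that guard the outer mitochondrial membrane. Bax then permeabilises that membrane, cytochrome c escapes, and Apaf1 assembles it into the apoptosome that activates caspase-9. PUMA (from Bbc3), NOXA (Pmaip1) and BIM (Bcl2l11) are BH3-only proteins. Bbc3, Pmaip1, Bax and Apaf1 are textbook transcriptional targets of p53, while BIM is best known in lymphocytes for restraining B cell survival and Myc-driven lymphoma. Doxorubicin damages DNA, and (-)-Nutlin blocks the MDM2 pocket that holds p53 for degradation. Its mirror image, (+)-Nutlin, is the weakly active enantiomer used as a control.

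The lists give a position and a width for each peak and neither a height nor a score. Read depth per library is unknown, and the widths are those of the authors' peak calling. The lists held 116 to 11346 peaks and came in 2 kinds. In 12 narrow lists the smallest peak was 52 to 54 bp and the median 68 to 111 bp, and in 14 wide lists the smallest was 278 to 391 bp and the median 417 to 552 bp. All doxorubicin, (-)-Nutlin and OHT lists and all lists of tumour 5 were wide, and all others were narrow. In KI tumours the kind of list and the treatment cannot be told apart, and in Arf tumours they can be separated in tumour 5. The main measure is covered base pairs, the number of bases in a window that lie under a peak. It does not remove the difference between the 2 kinds of list, so its values in tumour 5 stand beside the results. Each p for covered length comes from a two-sided exact permutation test over lists, without adjustment over the 40 tests of 8 comparisons at 5 genes. Nothing states whether each list came from its own culture. A tumour gives 1 list per treatment, so the spread within a treatment group is that between tumours. Where treatments are joined, the spread mixes treatments as well.

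**Figure D1:**
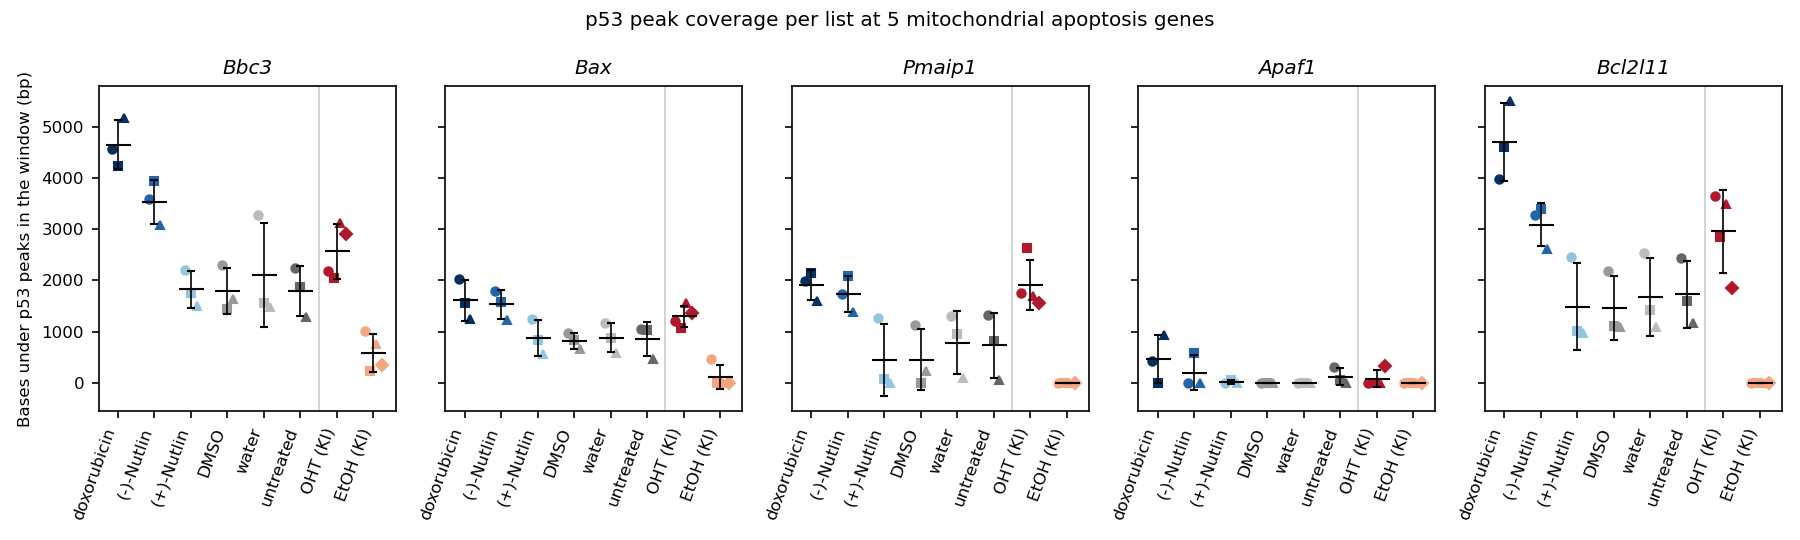
Bases under p53 peaks in each gene's window (bp, linear axis), one point per list, by treatment, with Arf tumours left of the grey line and Trp53(KI/delta) tumours right of it. Circles are tumours 5 and 1, squares 6 and 2, triangles 7 and 3, and diamonds 4, and bars are mean ± SD. At Bbc3 the 3 doxorubicin lists lie between 4230 and 5166 bp, above all other lists, and the 4 EtOH lists between 224 and 1022 bp.

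Bbc3 was the one gene of the 5 with a p53 peak in all 26 lists. It held 65 peaks of 52 to 2733 bp in 7 regions, lettered a to g along the chromosome. PUMA, its product, binds all the main guardians of the BCL2 family. Covered length in the window was 4564, 4230 and 5166 bp in doxorubicin lists of tumours 5, 6 and 7, and 3600, 3935 and 3081 bp in (-)-Nutlin lists. It was 2213, 1760 and 1501 bp with (+)-Nutlin, 2293, 1441 and 1634 bp with DMSO, 3284, 1555 and 1477 bp with water, and 2247, 1865 and 1284 bp without treatment. Doxorubicin lists lay above every other list, and (-)-Nutlin lists above all controls except the water list of tumour 5. In KI tumours 1 to 4 it was 2184, 2045, 3133 and 2917 bp with OHT, against 1022, 224, 755 and 339 bp with EtOH. Every OHT list lay above every EtOH list. OHT lists averaged 2570 ± 536 bp and EtOH lists 585 ± 370 bp (SD, n = 4 each), a difference of 1985 bp and its exact permutation p was 0.02857, the lowest that 4 against 4 lists can give.

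One region, Bbc3 e at chr7:16892674-16895642, was shared by every list and carried 35 of the 65 peaks. The widest peak of the window lay in it in each list. Its width was 2025, 1925 and 2686 bp with doxorubicin, 1961, 2188 and 1918 bp with (-)-Nutlin, 2213, 1760 and 1501 bp with (+)-Nutlin, 2293, 1371 and 1634 bp with DMSO, 2733, 1501 and 1425 bp with water, and 2247, 1807 and 1284 bp in untreated cells of tumours 5, 6 and 7. In tumour 5 the water peak was the widest of all 6. OHT peaks of tumours 1 to 4 were 2184, 2045, 1394 and 1379 bp wide, against 1022, 154, 755 and 141 bp for the widest EtOH peak. In EtOH lists of tumours 2 and 4 the region was split into 2 and 3 short peaks. Within its own list this peak ranked between 2nd and 86th in width, and even in EtOH cells of tumour 1, with 116 peaks, it was 2nd.

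**Figure D2:**
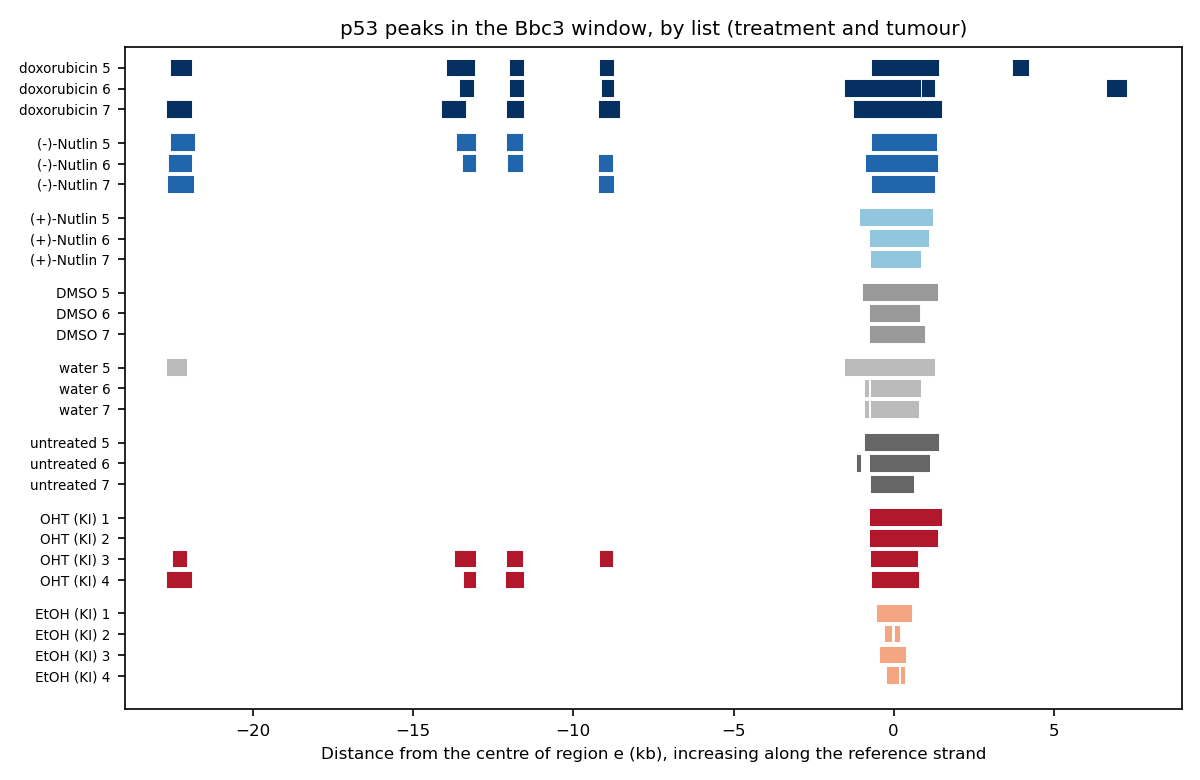
Every p53 peak in the Bbc3 window, drawn to scale as a bar, with one row per list (treatment and tumour number). The horizontal axis is the distance in kb from the centre of region e. All 26 rows have a peak at region e, while the rows with peaks at regions b, c and d are doxorubicin, (-)-Nutlin or OHT lists.

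A further 4 Bbc3 regions lay on one side of region e, at lower coordinates. They were Bbc3 a (chr7:16871501-16872326), b (chr7:16880096-16881099), c (chr7:16882098-16882594) and d (chr7:16884985-16885585). The gap between d and e was 7088 bp, between c and d 2390 bp, between b and c 998 bp and between a and b 7769 bp. Region a had a peak in 2 of 3 doxorubicin, 3 of 3 (-)-Nutlin and 2 of 4 OHT lists, and in 1 control list, water of tumour 5. Regions b and c were each found in 3 doxorubicin, 2 (-)-Nutlin and 2 OHT lists, and region d in 3 doxorubicin lists, 2 (-)-Nutlin lists and 1 OHT list. None of b, c and d had a peak in any of the 16 unactivated lists, which are the EtOH, untreated, water, DMSO and (+)-Nutlin ones. Their peaks were 314 to 785 bp wide. In tumour 5, where the lists without an activating treatment were wide as well, those lists had no peak at b, c or d either. Regions f and g had 1 peak each, both in doxorubicin lists.

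The promoter table holds 3 windows for Bbc3, each from 250 bases before to 50 after an annotated start. Their sequences were searched on both strands for the p53 consensus, 2 half-sites of 10 bases with 0 to 13 bases between them. One window holds a full site of 20 bases with no spacer and 3 mismatches, a limit set after the windows were seen. It is shown, 5′ to 3′ (RefSeq, GRCm38.p6, chr7:16309333-16309632, + strand), because p53 peaks were found near this gene in every list, with that site in capitals.
Bbc3 promoter: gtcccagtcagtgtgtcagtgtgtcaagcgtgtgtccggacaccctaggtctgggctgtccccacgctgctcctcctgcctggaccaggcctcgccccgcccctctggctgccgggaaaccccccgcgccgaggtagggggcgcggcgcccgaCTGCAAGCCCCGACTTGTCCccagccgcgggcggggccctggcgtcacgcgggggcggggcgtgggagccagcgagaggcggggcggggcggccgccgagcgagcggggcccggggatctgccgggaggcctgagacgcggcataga
Among all 32851 promoter windows of the table, 1.38% hold a site of that form. The window was not placed against the peaks, which are in mm9, so whether the letters lie in region e is not known here.

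Bcl2l11 had 63 peaks of 54 to 2572 bp in 22 lists and 5 regions. BIM, its product, is a BH3-only protein that B cells need in order to die when growth factors are withdrawn. Covered length was 3982, 4617 and 5512 bp with doxorubicin and 3272, 3397 and 2608 bp with (-)-Nutlin in tumours 5, 6 and 7. It was 2467, 1019 and 970 bp with (+)-Nutlin, 2184, 1104 and 1085 bp with DMSO, 2528, 1415 and 1086 bp with water, and 2448, 1590 and 1161 bp in untreated cells. All 6 lists of activated cells lay above all 12 others, and among those 12 the tumour 5 lists were the highest. OHT lists of tumours 1 to 4 had 3643, 2847, 3490 and 1850 bp, against no peak in any of the 4 EtOH lists. OHT lists averaged 2958 ± 815 bp (SD, n = 4), at the smallest exact permutation p possible, 0.02857.

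**Figure D3:**
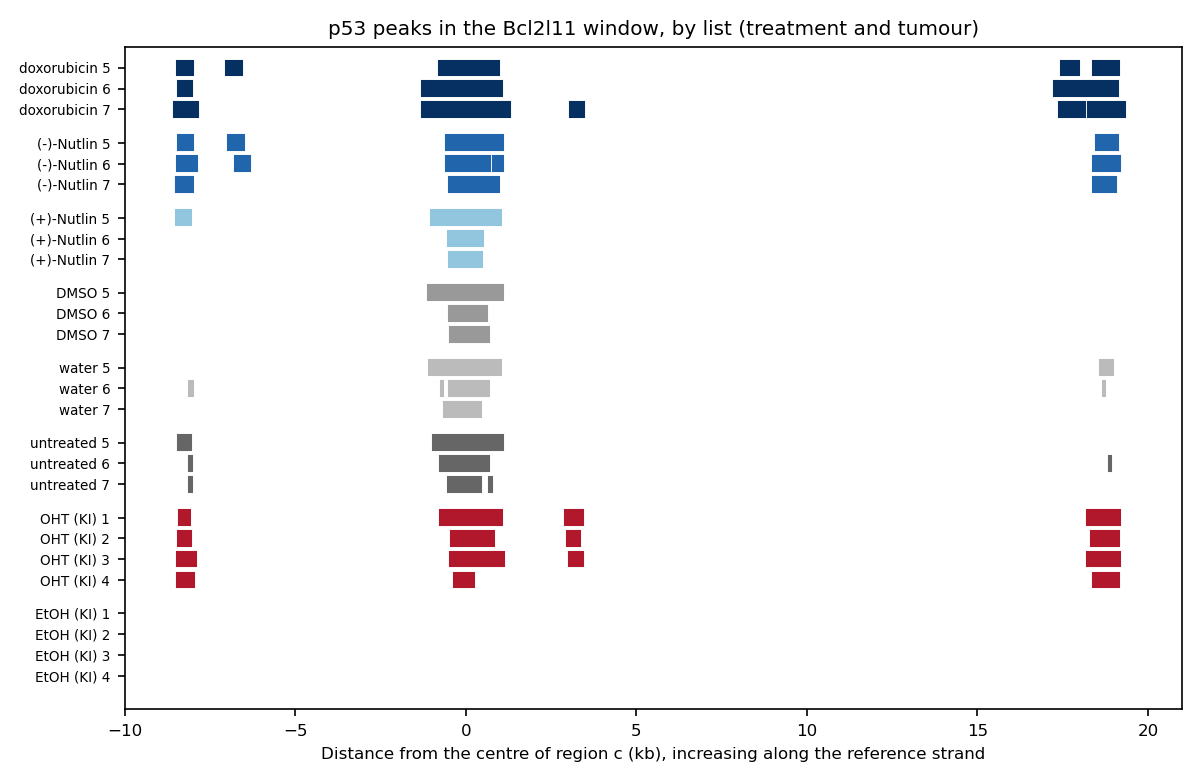
Every p53 peak in the Bcl2l11 window, drawn to scale with one row per list. The horizontal axis is the distance in kb from the centre of region c. All 22 rows other than the 4 EtOH rows have a peak at region c, and the activated rows also have one at regions a and e.

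The central Bcl2l11 region was c, at chr2:127958560-127961134. It had a peak in 3 of 3 lists of each Arf group and in 4 of 4 OHT lists, and its peaks ranged from 68 to 2572 bp. Region a (chr2:127951293-127951977) had a peak in all 10 activated lists, in 3 untreated, 1 water and 1 (+)-Nutlin list, and in no DMSO or EtOH list. Region e (chr2:127977102-127979176) was likewise in all 10 activated lists, and in 2 water lists and 1 untreated list besides. Of the 12 other Arf lists, region c was in 12, region a in 5 and region e in 3. Region b (chr2:127952816-127953505) had a peak in 1 doxorubicin and 2 (-)-Nutlin lists, and region d (chr2:127962758-127963316) in 1 doxorubicin and 3 OHT lists. Neither was found in an unactivated list. Region e lay 13785 bp beyond region d.

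Pmaip1, which encodes NOXA, a BH3-only protein that neutralises MCL1, had 46 peaks of 52 to 1109 bp in 20 lists and 5 regions. Covered length was 1993, 2154 and 1592 bp with doxorubicin and 1743, 2096 and 1394 bp with (-)-Nutlin in tumours 5, 6 and 7. It was 1265, 71 and 0 bp with (+)-Nutlin, 1134, 0 and 226 bp with DMSO, 1300, 963 and 96 bp with water, and 1318, 819 and 58 bp in untreated cells. Activated lists of Arf tumours lay above all others here too, and tumour 7 had 0 to 226 bp in its 4 other lists. With OHT, tumours 1 to 4 had 1760, 2633, 1701 and 1563 bp, against 0 bp in all 4 EtOH lists. OHT lists averaged 1914 ± 486 bp (SD, n = 4), again at the smallest exact permutation p possible, 0.02857.

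Pmaip1 peaks gathered at 2 places. Region c (chr18:66617532-66618702) had a peak in all 10 activated lists and in 2 untreated, 2 water, 1 DMSO and 1 (+)-Nutlin list. Region d (chr18:66629043-66630151), 10340 bp further on, was found in all 6 doxorubicin and (-)-Nutlin lists, in 10 of the 12 other Arf lists and in 2 of 4 OHT lists. Region a (chr18:66607284-66607716) had a peak in 1 doxorubicin, 2 (-)-Nutlin and 2 OHT lists. Region b (chr18:66612901-66613413) had one in 1 (-)-Nutlin and 3 OHT lists. Region e had 1 peak, in an OHT list.

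Bax, the effector that forms pores in the outer mitochondrial membrane, had 34 peaks of 62 to 1591 bp in 23 lists and 2 regions. Covered length was 2037, 1555 and 1246 bp with doxorubicin and 1793, 1585 and 1232 bp with (-)-Nutlin in tumours 5, 6 and 7. It was 1241, 830 and 559 bp with (+)-Nutlin, 969, 840 and 652 bp with DMSO, 1164, 884 and 591 bp with water, and 1050, 1030 and 470 bp in untreated cells. Activated Arf lists lay above the others with 1 exception: the (-)-Nutlin list of tumour 7, at 1232 bp, lay just below the (+)-Nutlin list of tumour 5, at 1241 bp. OHT lists of tumours 1 to 4 had 1200, 1064, 1556 and 1366 bp, against 459, 0, 0 and 0 bp with EtOH. OHT lists averaged 1296 ± 213 bp and EtOH lists 115 ± 230 bp (SD, n = 4 each), at the smallest exact permutation p possible, 0.02857. Bax b (chr7:52721013-52722713) had a peak in all 18 Arf lists, in 4 of 4 OHT lists and in 1 of 4 EtOH lists. Bax a (chr7:52715154-52715602), 5410 bp before it, was found in 1 doxorubicin, 2 (-)-Nutlin and 2 OHT lists and in no other.

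The Bax promoter of the table holds 1 exact half-site of the p53 consensus, as 8.36% of all promoter windows do. The window also holds 2 full sites with 2 mismatches each and a spacer of up to 13 bases. Only the first along the sequence is marked, from base 35 to base 59, with a spacer of 5 bases. The exact half-site is part of it. The window is shown, 5′ to 3′ (RefSeq, GRCm38.p6, chr7:45466849-45467148, - strand), for comparison with the Bbc3 window, the half-sites of the marked site being in capitals.
Bax promoter: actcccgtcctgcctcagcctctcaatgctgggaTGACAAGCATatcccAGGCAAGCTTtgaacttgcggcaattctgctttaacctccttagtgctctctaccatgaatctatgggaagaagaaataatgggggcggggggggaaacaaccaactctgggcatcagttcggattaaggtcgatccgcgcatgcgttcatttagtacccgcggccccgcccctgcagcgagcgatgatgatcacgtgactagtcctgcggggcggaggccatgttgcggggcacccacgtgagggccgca
A full site of that quality, with a spacer of up to 13 bases, was found in 4.08% of windows. The promoter windows of Apaf1 (1), Bcl2l11 (2) and the other two of Bbc3 hold no match of either kind, which says nothing of sites outside these 300 bases. The promoter of Pmaip1 was left out, so 4 genes are described.

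Apaf1, the scaffold of the apoptosome, had few p53 peaks. The 140 kb window, the longest of the 5, held 8 peaks of 57 to 592 bp, all in the region at chr10:90545054-90546066. Covered length was 436, 0 and 937 bp with doxorubicin, 0, 592 and 0 bp with (-)-Nutlin, 0, 59 and 0 bp with (+)-Nutlin, and 312, 57 and 0 bp in untreated cells of tumours 5, 6 and 7. DMSO, water and EtOH lists had no peak there, and of the OHT lists tumour 4 alone had one, of 330 bp. No group had a peak in all of its lists. In their own lists these peaks had width percentiles between 10.8 and 82.4, the highest being that of (-)-Nutlin in tumour 6.

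**Figure D4:**
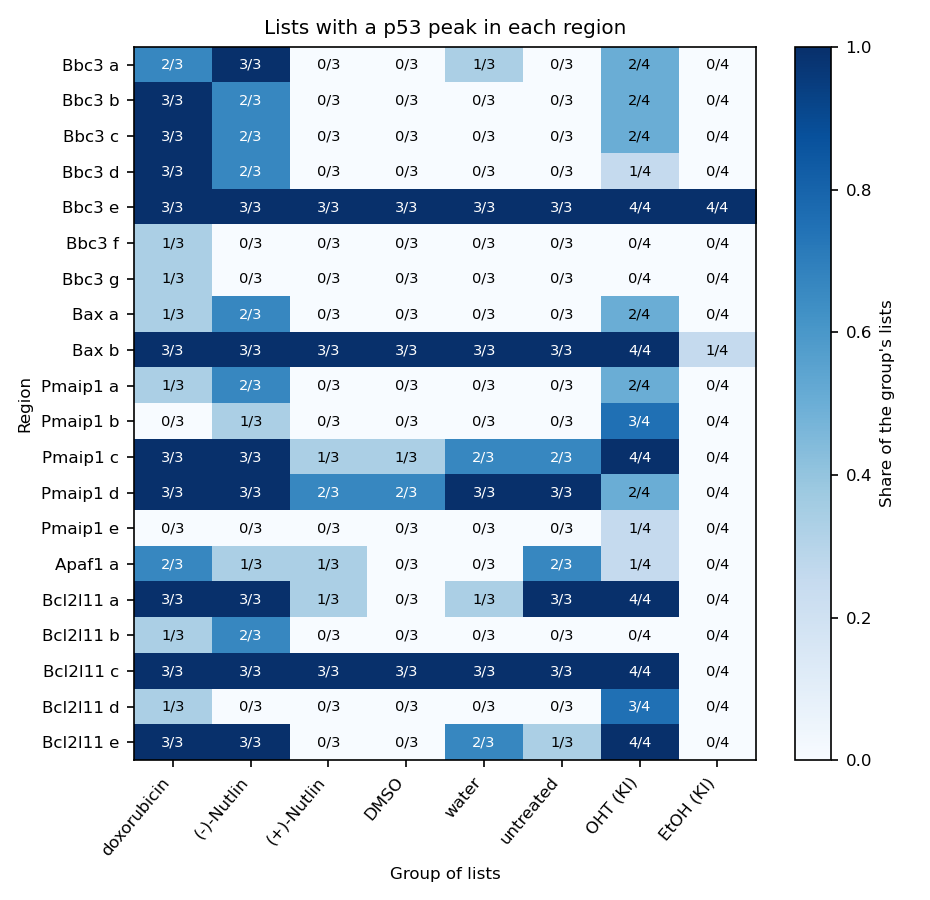
Number of lists with a p53 peak in each of the 20 regions (rows, lettered along the chromosome within each gene), by treatment group (columns), with colour for the share of the group's lists from 0 to 1. Bbc3 e is the one row with a peak in all lists of every column, and 11 rows are empty in all 5 unactivated columns.

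Across the 5 genes, 9 of the 20 regions had a peak in at least 1 unactivated list, 11 in activated lists alone, and 0 in unactivated lists alone. All 10 activated lists shared 6 regions, Bbc3 e, Bax b, Pmaip1 c and Bcl2l11 a, c and e. The activated lists held 3597 to 11346 peaks and the unactivated lists 116 to 2696, and the part of list length in these counts was not tested.

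OHT was compared with EtOH to see which sites p53 takes once its function is restored. Of 17 regions in the KI lists, 4 (23.5%) were gained, that is, found in 4 of 4 OHT lists and 0 of 4 EtOH lists, namely Pmaip1 c and Bcl2l11 a, c and e. Over all 12799 regions of these lists the share was 9.31%. Fisher's exact test, adjusted over all regions by Benjamini-Hochberg, called 0, with a lowest adjusted p of 0.307. The 1191 regions with an unadjusted p under 0.05 were the gained ones, these 4 among them. A peak in 4 of 4 lists against 0 of 4 always gives such a p. No region of the 5 genes had a peak in EtOH cells alone. Tumour by tumour, OHT lists had 8, 10, 14 and 13 of the regions and EtOH lists 2, 1, 1 and 1, all of them also in the OHT list. In covered length every OHT list lay above every EtOH list at 4 of 5 genes, against 22.6% of 73 kb bins across the genome, bins as long as the mean window. Apaf1 averaged 82.5 bp with OHT and 0 bp with EtOH, with an exact permutation p of 1. With tumours paired, the exact p was 0.125 for Bbc3, Bax, Pmaip1 and Bcl2l11, the smallest that 4 pairs allow, with OHT higher in 4 of 4 tumours. All OHT lists were wide and all EtOH lists narrow.

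Doxorubicin, which damages DNA, was set against water. Of 19 regions, 3 (15.8%) were gained, with a peak in 3 of 3 doxorubicin and 0 of 3 water lists, and these were Bbc3 b, c and d. Across the genome 18.1% of 15038 regions met that rule, so the share was no higher at these genes. The count of 3 became 1 among peaks not under the overall median width, and 6 without tumour 6. It was also 1 with doxorubicin lists shortened to the shortest of them, while the water lists, already shorter, stayed whole. Covered length averaged 4653 ± 474 bp with doxorubicin and 2105 ± 1022 bp with water at Bbc3, and 4704 ± 769 bp with doxorubicin and 1676 ± 756 bp with water at Bcl2l11 (SD, n = 3 each). At Pmaip1 it was 1913 ± 289 bp with doxorubicin and 786 ± 621 bp with water, and at Bax 1613 ± 399 bp with doxorubicin and 880 ± 286 bp with water. These 4 genes showed no overlap between groups, and neither did 45.2% of bins. The exact permutation p was 0.1 for each, the smallest that 3 against 3 lists allow, and 0.4 at Apaf1. In tumour 5, where both lists were wide, doxorubicin exceeded water by 1280 bp at Bbc3, 1454 bp at Bcl2l11, 693 bp at Pmaip1, 873 bp at Bax and 436 bp at Apaf1. There the doxorubicin list had 16 regions and the water list 7, all of which were among the 16. That doxorubicin list held 11346 peaks and the water list 2206, and the part of list length in these tumour 5 values was not tested.

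The Nutlins, mirror images at the same dose and time, were compared with DMSO and with each other. (-)-Nutlin gained 3 of 16 regions (18.8%) over DMSO, namely Bbc3 a and Bcl2l11 a and e, against 27.9% of 12661 regions in the genome. Over (+)-Nutlin it gained 2 of 16 (12.5%), Bbc3 a and Bcl2l11 e, against 23.6% of 12660 regions. Both shares lay below the genome's, and the 2 comparisons share the (-)-Nutlin lists. Without tumour 5 the counts were 5 over DMSO and 5 over (+)-Nutlin, and without tumour 7 they were 8 over DMSO and 7 over (+)-Nutlin. Peaks not under the median width gave 4 over (+)-Nutlin. (-)-Nutlin lists averaged 3539 ± 430 bp at Bbc3, 3092 ± 424 bp at Bcl2l11, 1744 ± 351 bp at Pmaip1 and 1537 ± 284 bp at Bax (SD, n = 3). They exceeded DMSO lists by 1749, 1635, 1291 and 716 bp at these genes, without overlap at any of the 4, as in 48.0% of bins. Against (+)-Nutlin lists the differences were 1714, 1607, 1299 and 660 bp, without overlap at Bbc3, Bcl2l11 and Pmaip1, as in 45.0% of bins. The exact permutation p was 0.1 where the groups did not overlap, the smallest possible, 0.2 at Bax against (+)-Nutlin, and 1 at Apaf1 in both comparisons.

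(+)-Nutlin was not distinguished from DMSO at any of the 5 genes. The mean difference was 35.3 bp at Bbc3, 27.7 bp at Bcl2l11, -8 bp at Pmaip1, 56.3 bp at Bax and 19.7 bp at Apaf1, with exact permutation p between 0.9 and 1. The groups overlapped at each gene, and 0.00% of 2512 bins across the genome were free of overlap in this direction. In both groups the tumour 5 list was wide and those of tumours 6 and 7 were narrow. Freedom from overlap would need narrow lists to exceed a wide one, so the overlap and the unpaired p had little room to show a difference. By tumour, (+)-Nutlin minus DMSO ranged from -133 to 319 bp at Bbc3, from -115 to 283 bp at Bcl2l11, from -226 to 131 bp at Pmaip1 and from -93 to 272 bp at Bax, so the direction differed between tumours. In tumour 5, where all lists were wide, (-)-Nutlin exceeded (+)-Nutlin by 1387 bp at Bbc3, 805 bp at Bcl2l11, 478 bp at Pmaip1 and 552 bp at Bax. In the same tumour the (-)-Nutlin list had 13 regions, the (+)-Nutlin list 6 and the DMSO list 5, and those of the 2 shorter lists were all among the 13. These lists held 10503, 2351 and 1694 peaks, and the part of list length in these tumour 5 values was not tested.

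Doxorubicin was also set against (-)-Nutlin, tumour by tumour, at the same time point. Doxorubicin exceeded (-)-Nutlin by 1115 bp at Bbc3 and 1611 bp at Bcl2l11, in 3 of 3 tumours and without overlap, at the smallest exact permutation p possible, 0.1. In the genome 18.1% of bins were free of overlap in this direction. By tumour the difference was 964, 295 and 2085 bp at Bbc3 and 710, 1220 and 2904 bp at Bcl2l11 in tumours 5, 6 and 7, largest in tumour 7, without which it averaged 629.5 bp at Bbc3 and 965 bp at Bcl2l11. At Pmaip1 the difference was 169 bp (p = 0.6), at Bax 76 bp (p = 0.9) and at Apaf1 260 bp (p = 0.7) by the same exact permutation test, and the groups overlapped. Within tumours, doxorubicin was higher at Pmaip1 in 3 of 3 as well, by 250, 58 and 198 bp in tumours 5, 6 and 7. With tumours paired, the exact p was 0.25 at Bbc3, Bcl2l11 and Pmaip1 alike, the smallest that 3 pairs allow. Among peaks not under the overall median width, doxorubicin minus (-)-Nutlin was 784 bp at Bbc3 (exact permutation p = 0.5), where the groups then overlapped. At Bcl2l11 it was 1586 bp by that measure (exact permutation p = 0.1). All 6 lists were wide, but their lengths differed. Doxorubicin lists held 11346, 8250 and 9523 peaks in tumours 5, 6 and 7, and (-)-Nutlin lists 10503, 10674 and 5617. Over the genome, doxorubicin lists covered 6528768, 5275069 and 6142029 bp, and (-)-Nutlin lists 5254833, 5042394 and 3348065 bp. With lists shortened to their 8250 widest peaks, the difference was 973.7 bp at Bbc3 and 1714 bp at Bcl2l11 (exact permutation p = 0.1 each). The (-)-Nutlin list of tumour 7, with 5617 peaks, stayed whole. Beyond this, the part of list length and of genome coverage in the differences at these genes was not tested. In tumour 6 the doxorubicin list had 11 regions and the (-)-Nutlin list 16, whereas in tumours 5 and 7 the doxorubicin list had more, 16 against 13 and 13 against 9. Regions Bbc3 a, Bax a, Pmaip1 a and Bcl2l11 b were among the 6 that (-)-Nutlin alone had in tumour 6.

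Joined, the 6 doxorubicin and (-)-Nutlin lists were tested against the 12 other lists of Arf tumours, which the Arf comparisons above also use. All come from tumours 5 to 7, so lists of the same tumour are not independent, although Fisher's exact test counts each list as a unit. Of 19 regions, 5 (26.3%) had a peak more often in the 6, in Fisher's exact test adjusted by Benjamini-Hochberg over all 17143 regions, of which 34.6% were called. Bbc3 b, c and d had a peak in 5 of 6 activated lists and 0 of 12 others (adjusted p = 0.00453 each, Fisher's exact test). Bbc3 a had one in 5 of 6 and 1 of 12 (adjusted p = 0.0166) and Bcl2l11 e in 6 of 6 and 3 of 12 (adjusted p = 0.0289, both Fisher's exact test). Bax a, Pmaip1 a and Bcl2l11 b, each in 3 of 6 activated lists and 0 of 12 others, had an adjusted p of 0.0512. With the tumour as a replicate block these 3 were called as well (adjusted p = 0.0493, exact test within tumours), which made 8 regions (42.1%), against 45.1% of all 17143 regions by that test. Both shares lay below the genome's. The activated lists were the longer ones. With activated lists shortened to their widest peaks, down to the 5617 peaks of the shortest of them, 1 region was called. The 12 other lists, of 707 to 2696 peaks, stayed whole, so list length was not made equal between the groups. Fewer regions were called when a tumour was left out, 1 without tumour 5, 0 without tumour 6 and 2 without tumour 7. Each of these tests also had fewer lists, and the part of that in the lost calls was not tested.

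Covered length in the joined lists averaged 4096 ± 733 bp in activated lists (SD, n = 6) and 1880 ± 558 bp in the others (SD, n = 12) at Bbc3. At Bcl2l11 activated lists averaged 3898 ± 1043 bp and the others 1588 ± 633 bp, and at Pmaip1 activated lists averaged 1829 ± 302 bp and the others 604 ± 572 bp. At Bax activated lists averaged 1575 ± 312 bp and the others 857 ± 248 bp, and at Apaf1 activated lists averaged 328 ± 394 bp and the others 35.7 ± 89.9 bp. The exact permutation p was 5.387e-05 at Bcl2l11, the smallest possible, 0.0001077 at Bbc3 and at Bax, 0.0002155 at Pmaip1 and 0.02451 at Apaf1. Permuted within tumours, it was 0.0002963 at the first 4, the smallest possible, and 0.03704 at Apaf1. The groups were free of overlap at Bcl2l11 and Pmaip1, as in 20.3% of bins. The comparison sets 6 wide activated lists against 8 narrow lists and the 4 wide control lists of tumour 5. In tumour 5 alone, activated lists exceeded the others by 1220 bp at Bcl2l11 (2310 bp over all tumours), 613.8 bp at Pmaip1 (1224 bp), 1573 bp at Bbc3 (2216 bp), 809 bp at Bax (718 bp) and 140 bp at Apaf1 (292 bp), with no test. At Apaf1 the call did not hold when any 1 tumour was left out (exact permutation p = 0.09091 in each case).

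Untreated cells of Arf tumours, with wild-type p53, were set against EtOH cells of KI tumours. Untreated lists averaged 1799 ± 485 bp and EtOH lists 585 ± 370 bp at Bbc3, and untreated lists 850 ± 329 bp and EtOH lists 115 ± 230 bp at Bax (SD, n = 3 untreated and n = 4 EtOH). Untreated lists averaged 1733 ± 655 bp at Bcl2l11 and 732 ± 634 bp at Pmaip1, where EtOH lists had no peak. The exact permutation p was 0.02857 at Bbc3, Bcl2l11 and Pmaip1, the smallest possible, 0.05714 at Bax and 0.1429 at Apaf1. Without tumour 5 the Pmaip1 difference was 438.5 bp (exact permutation p = 0.06667). At the 4 genes other than Apaf1 the groups did not overlap, against 12.7% of bins. These groups differ in genotype, in the solvent and in the tumour, which cannot be told apart, and in tumour 5 also in the kind of list.

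**Figure D5:**
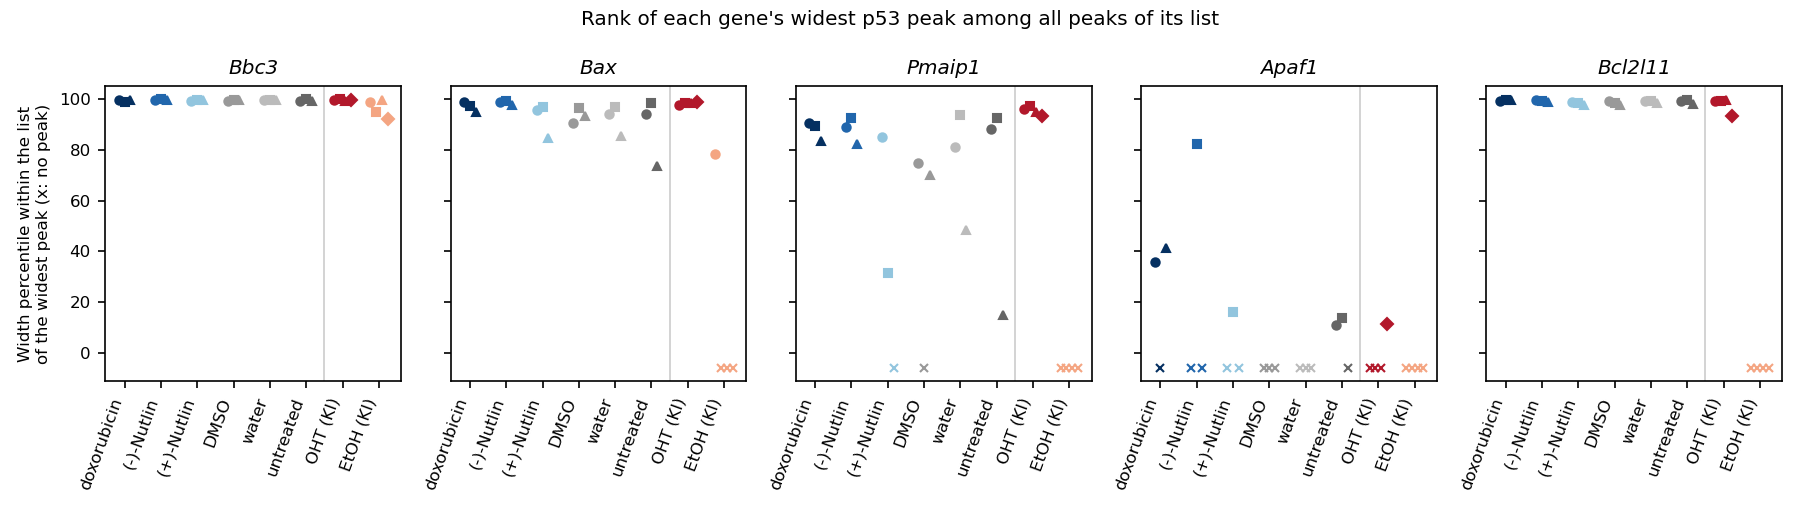
Width percentile, within its own list, of the widest p53 peak in each gene's window, one point per list, by treatment, with crosses for lists without a peak. Symbols mark tumours as in the plot of covered bases. Bbc3 lies between 92.2 and 99.96 in all 26 lists and Bcl2l11 between 93.6 and 99.8 in the 22 lists with a peak, while Pmaip1, Bax and Apaf1 spread further down.

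Width relative to the other peaks of the same list describes the genes without crossing the 2 kinds of list. The widest Bbc3 peak stood at the 98.97th to 99.96th percentile of width in doxorubicin and (-)-Nutlin lists, at 99.3 to 99.95 in the other Arf lists, at 99.5 to 99.94 with OHT and at 92.2 to 99.9 with EtOH. At Bcl2l11 the percentile was 98.8 to 99.8 in activated and 97.9 to 99.6 in other Arf lists, and 93.6 to 99.7 with OHT. Where a list had peaks at these 2 genes, the widest of them ranked high in that list, with and without activation in Arf tumours. EtOH lists had no peak at Bcl2l11. Other peaks in these windows ranked far lower, down to percentile 1.63 in region Bbc3 d and 4.6 in region Bcl2l11 e. Bax stood at 94.9 to 99.3 in activated and 73.9 to 98.4 in other Arf lists, and at 97.9 to 98.7 with OHT. Pmaip1 was lower, at 82.2 to 92.7 in activated Arf lists and 93.3 to 97.5 with OHT, and in the other Arf lists that had a peak it ran from 15.0 to 93.9. The lists differ in length, so these percentiles describe each list and are no measure of change.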

How the data were processed

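Per the labels' protocols, B cells from lymph nodes were sonicated to chromatin fragments averaging 250 bp and precipitated with the CM5p antibody. Per the submitters' processing notes, reads were handled by the authors with BWA 0.6.2 and SAMtools on mm9. How peaks were called, at what threshold and with which inputs is not given in the sources used here. Each deposited list holds chromosome, start and end, belongs to 1 library and was used whole. The 7 input libraries were not used here. Coordinates are mm9, counted from 1.

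Here, peaks were assigned to the 5 windows, and peaks sharing at least 1 bp were merged into regions, lettered from a within each gene. The members and lists were chosen with earlier results of these data known. By rule, regions with a peak in at least 3 lists were described and the others counted. Gained regions had a peak in each treated list and in 0 lists of the control. Tests were Fisher's exact test per region (Benjamini-Hochberg over all regions, threshold 0.05) and exact permutation of covered base pairs. Tumour numbers in the titles mark cells of the same tumour, so treatments of 1 tumour are paired, and blocked tests were run beside the unpaired ones. Background shares came from all regions, and from bins of 73 kb with a peak in the lists compared. The bins, the motif search with 3 mismatches and the counts of regions tumour by tumour were added after seeing the data. No mm9 genome or annotation was used, so exons, start sites and other genes of the pathway were not analysed here. The code ran on Python 3.11.15 with scipy 1.17.1, and was tested on simulated lists.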

Additional observations from a re-analysis of the deposited data

Results flagged for a closer look

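Among the 7 groups of 4 lists whose values were not all equal, 2 had 1 list far from the rest. At Bax, EtOH cells of tumour 1 had 459 bp under 3 peaks, and the EtOH lists of tumours 2 to 4 had none. At Apaf1, OHT cells of tumour 4 had 330 bp under 1 peak, and the OHT lists of tumours 1 to 3 had none. Chance flags about 1 in 20 groups by this criterion, and a group with 1 list above 0 always meets it.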

How the results depend on the processing

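Values of covered length under other settings were sorted by sign and by whether a call under 0.05 was lost. The spread was used only for tumour 5 alone, which has no test. By these rules 356 were kept. Of these, 21 came to 0 and have no direction, and 21, in part the same ones, are from tumour 5 alone. A kept value may still differ in size. OHT minus EtOH at Bax was 1182 bp, and 1628 bp with windows widened by 10 kb. Comparisons of 3 against 3 lists, whose smallest exact p is 0.1, had no call to lose. A further 58 values lost a call, 29 changed sign, and 7, all from tumour 5 alone, moved by more than the spread. Of the region counts 29 stayed within 1.5 times and 18 did not. The calls lost when a tumour was left out from OHT against EtOH, or under the replicate block, follow from fewer lists or pairs, whose smallest exact p is 0.1 or 0.125. For the other changes the cause was not tested. Without scores or read depth, a site missing from a list cannot be told apart from one below the calling threshold.

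Paired within tumours (replicate block), the differences of OHT from EtOH were 1985 bp at Bbc3, 1182 bp at Bax, 1914 bp at Pmaip1 and 2958 bp at Bcl2l11, each with an exact p of 0.125, and the joined comparison called 8 regions. Leaving out 1 tumour, OHT minus EtOH ran from 1787 to 2259 bp at Bbc3, 1057 to 1329 bp at Bax, 1675 to 2031 bp at Pmaip1 and 2729 to 3327 bp at Bcl2l11. Untreated Arf minus EtOH ran from 989.5 to 1471 bp at Bbc3, 1376 to 2019 bp at Bcl2l11 and 438.5 to 1068 bp at Pmaip1. Activated minus other Arf lists ran from 203.5 to 367.8 bp at Apaf1. Doxorubicin minus (-)-Nutlin ran from -8 to 129 bp at Bax and from -78 to 686.5 bp at Apaf1. (+)-Nutlin minus DMSO ran from -106.5 to 119.5 bp at Bbc3, from -51.5 to 131 bp at Bax, from -100 to 99 bp at Bcl2l11 and from -77.5 to 101 bp at Pmaip1. Gained regions ran from 3 to 6 for doxorubicin, from 3 to 8 for (-)-Nutlin over DMSO and from 2 to 7 for (-)-Nutlin over (+)-Nutlin, and regions called in the joined comparison from 0 to 2.

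With 1 list of each group allowed to differ, gained regions were 7 for OHT, 6 for doxorubicin and 10 for (-)-Nutlin over either DMSO or (+)-Nutlin. Among peaks not under the overall median width of 457 bp they were 1 for doxorubicin and 4 for (-)-Nutlin over (+)-Nutlin. Shortening longer lists to their widest peaks, down to the length of the shortest treated list, gave 1 for doxorubicin over water. It gave 1 in the joined comparison, where an adjusted p under 0.01 gave 3. The control lists of both comparisons were already shorter and stayed whole. Cut lists also gave 148.5 bp at Apaf1 in the joined comparison and -115.3 bp at Bcl2l11 for (+)-Nutlin minus DMSO. Peaks of at least the median width gave 184.2 bp at Apaf1 in the joined comparison, and 1335 bp at Bbc3 and 648.3 bp at Pmaip1 for untreated Arf minus EtOH. They gave -26.33 bp at Apaf1 for doxorubicin minus (-)-Nutlin, and -130, -59.67 and 49.67 bp at Bax, Bcl2l11 and Pmaip1 for (+)-Nutlin minus DMSO. Windows widened by 10 kb gave -407.3 bp at Bax for doxorubicin minus (-)-Nutlin.

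By number of peaks, OHT minus EtOH was 1 at Bbc3 and 0.75 at Bax, the joined difference 0.1667 at Bax and 0.4167 at Apaf1, and untreated Arf minus EtOH -0.4167 at Bbc3. Doxorubicin minus (-)-Nutlin was -0.3333 at Bax and -0.6667 at Pmaip1, and (+)-Nutlin minus DMSO -0.3333 at Bbc3. After joining peaks within 500 bp these were 1.75 and 1.25 for OHT, 0.25 at Apaf1 in the joined comparison, 0 at Bbc3 for untreated Arf, and -0.3333 and -0.6667 for doxorubicin minus (-)-Nutlin at Bax and Pmaip1. By percentile of the widest peak, with 0 where a list had none, OHT minus EtOH was 3.16 and untreated Arf minus EtOH 3.02 at Bbc3, while doxorubicin minus water was -0.3401 and the joined difference -0.01233 there. Doxorubicin minus (-)-Nutlin was -0.3193, -1.541, -0.0651 and -1.779 at Bbc3, Bax, Pmaip1 and Apaf1, and (+)-Nutlin minus DMSO -0.09345, -1.031 and -0.1239 at Bbc3, Bax and Bcl2l11. In tumour 5 alone, the Bcl2l11 differences were 1454 bp for doxorubicin minus water, 710 bp for doxorubicin minus (-)-Nutlin and 1220 bp in the joined comparison. At Pmaip1 they were 609 bp for (-)-Nutlin minus DMSO, 478 bp for (-)-Nutlin minus (+)-Nutlin and 613.8 bp in the joined comparison, at Bbc3 1280 bp for doxorubicin minus water, and for (+)-Nutlin minus DMSO -80 bp at Bbc3 and 131 bp at Pmaip1.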
